A study of Mus musculus with 6 samples.

Results

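The genes described here are 10 core members of the Notch pathway: the receptors Notch1, Notch2 and Notch3, the ligands Jag1, Jag2 and Dll1, the DNA-binding factor Rbpj, and the target and feedback genes Hes1, Hey1 and Nrarp. Every probe whose platform annotation carries one of these symbols was taken, which gave 13 of the 45281 probes on the array and covered 10 of the 19057 named genes. A single probe stands for 8 of the genes, while Notch2 has 2 and Rbpj has 3. The measurements come from KPC001, a mouse pancreatic cancer cell line obtained from a KPC tumour model, grown untreated in high-glucose DMEM with 10% FBS. The groups are 3 samples of the CD133- population and 3 samples of the CD133+ population of this 1 line, each hybridised as total RNA to an Illumina mouse bead array. All samples therefore share the same line and culture conditions, and the labels state neither how CD133 was gated, nor whether replicates came from cultures or sorts of their own, and a p-value here rests on the spread among these arrays alone, part or all of which may be technical. The alleles and the number of clones behind the line are not given in the sources used here.

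Notch signalling runs between touching cells. A Jagged or Delta-like ligand on one cell binds a Notch receptor on its neighbour, the receptor is cut by an ADAM protease and then by gamma-secretase, and the released intracellular domain enters the nucleus, where it joins Rbpj and a Mastermind protein to switch on genes such as Hes1, Hey1 and Nrarp. In the developing mouse pancreas this pathway holds progenitor cells back from endocrine and acinar differentiation, with Hes1 as its main effector, and it becomes active again in the ductal lesions that precede pancreatic cancer.

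The 6 arrays each detected 37.8% to 39.9% of their probes at a detection p under 0.05, with a median of 37 to 41 beads behind a probe. Between arrays of 1 population the typical difference was 1.47 to 1.78 times what bead error alone would give. Prom1, the gene for CD133, gave no detected signal in either population, and so the CD133 labels could not be checked from its mRNA. Of 9 epithelial and ductal marker genes 8 were detected on all arrays, among them Krt8, Krt18, Krt19, Cdh1 and Sox9, whereas Epcam was detected on 0. The mesenchymal list had 7 of 8 genes detected on all arrays, namely Vim, Fn1, Zeb1, Zeb2, Snai1, Snai2 and Twist1. Its remaining gene, Cdh2, was detected on 1 CD133+ array. In the lists for other cell types some genes were detected and others not. Of 5 leukocyte genes with a probe, Cd14 was detected on all 6 arrays, Ptprc and Adgre1 on 1 CD133+ array each, and Cd3e and Itgam on 0. Of 7 endothelial genes, Kdr was detected on 3 arrays by 1 of its probes, Pecam1 and Tie1 on 1 CD133+ array each, and Cdh5, Tek, Vwf and Emcn on 0. Of 7 fibroblast and stellate genes, Col1a1 was detected on all 6 arrays, Col1a2 on 1 CD133+ array, Col3a1, Pdgfra, Pdgfrb and Dcn on 1 CD133- array by each probe that detected them, and Lum on 0. For the 5 acinar genes with a probe, Cela1 was detected on all 6 arrays, Prss2 on 2 CD133- arrays, and Cpa1, Ctrb1 and Ptf1a on 0. In the endocrine list, Pdx1 was detected on all 6 arrays, and Ins2, Gcg, Sst and Chga on 0. Intensities are given below as log2 values after background correction with an offset of 16 and quantile normalization, which compresses the differences of dim probes. The brightness of a probe depends on its sequence, so levels are compared between the populations and never between genes, and in these bulk samples fewer expressing cells and less RNA per cell cannot be told apart.

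Notch1, Jag1, Dll1, Hes1, Hey1 and Nrarp were detected on all 6 arrays, so transcripts of a receptor, of a Jagged and a Delta-like ligand and of the 3 target genes were present in both CD133- and CD133+ cells. Notch3 and Rbpj stood at background on nearly every array. The ligand Jag1 and the feedback gene Nrarp had lower values on each CD133+ array than on any CD133- array, by -0.39 ± 0.12 and -0.25 ± 0.09 on the log2 scale (difference ± SE, n = 3 per group), but neither passed after adjustment over all tested probes (adjusted p = 0.157 and 0.231, limma with Benjamini-Hochberg adjustment). Hes1 and Hey1 differed by 0.10 ± 0.08 and -0.01 ± 0.10, and the sign of these small values turned under other scalings, to -0.05 for Hes1 with a median shift and to 0.01 for Hey1 with the authors' intensities or cyclic loess.

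Of the 13 member probes 8 were detected on at least 3 arrays and entered the fit, 1 for each of 8 genes. In limma's fit over 17219 probes 0 of these 8 passed an adjusted p under 0.05, where 1.53% of all tested probes did. At an unadjusted p under 0.05 there were 2 of 8 lower (7.52% of all tested probes) and 0 higher (9.08%). The same 2, Jag1 and Nrarp, were those whose groups did not overlap with CD133+ lower, which held for 11.6% of all tested probes. The 8 differences ran from -0.39 to 0.21, 4 below 0 (53.7% of all tested probes) and 4 above 0, with a median of 0.0037 beside -0.02 over all tested probes. With 3 against 3 arrays an exact two-sided permutation test of 1 probe cannot go below 0.1, the value that Jag1 and Nrarp reached.

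**Figure D1:**
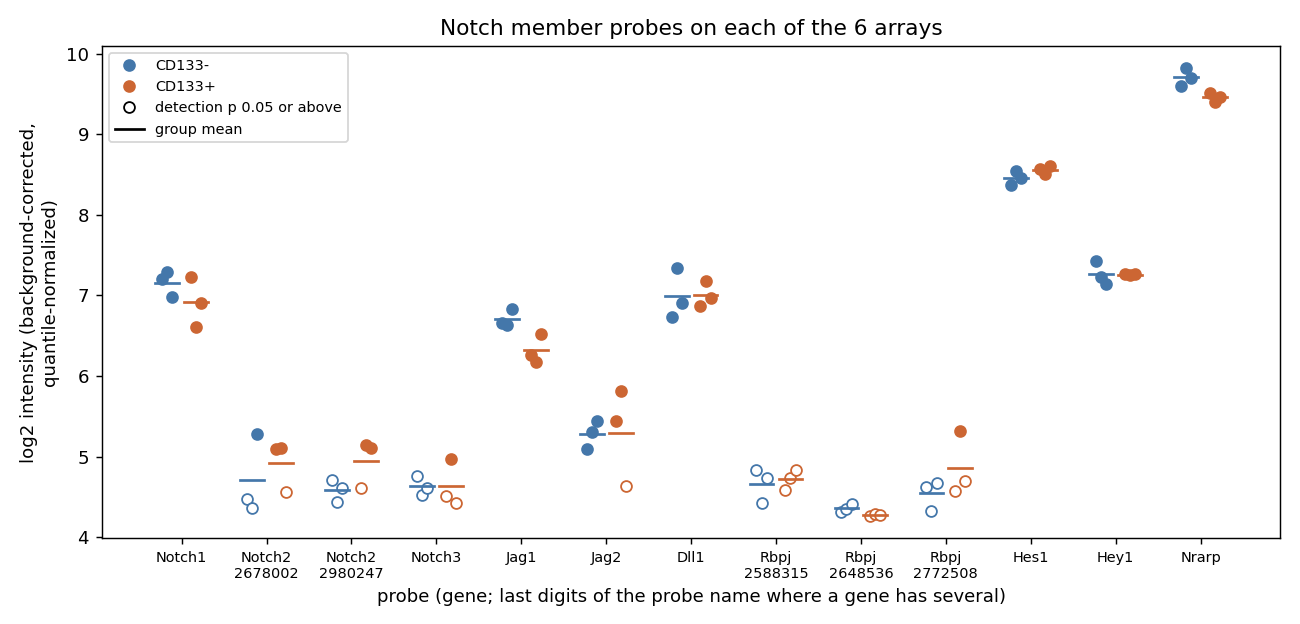
Log2 intensity (y axis) of each of the 13 member probes (x axis) on each of the 6 arrays, with CD133- in blue, CD133+ in orange, group means as bars and open circles where the detection p was 0.05 or above. The points of Jag1 and Nrarp separate the populations, those of Notch1, Dll1, Hes1 and Hey1 overlap, and both Notch2 probes, Notch3 and the 3 Rbpj probes lie mostly open near the background.

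Among the receptors, Notch1 was detected on all 6 arrays. Its log2 intensities were 7.20, 7.29 and 6.98 in CD133- replicates 1, 2 and 3 and 7.23, 6.61 and 6.91 in the CD133+ replicates. The populations overlapped, since CD133+ replicate 1 stood among the CD133- arrays while CD133+ replicate 2 was the lowest of all. The difference of -0.24 ± 0.17 (adjusted p = 0.526, limma) had a 95% interval from -0.63 to 0.15. It moved with single arrays, to -0.09 without CD133+ replicate 2 and to -0.40 without CD133+ replicate 1, and none of these fits passed. The deposited intensity of Notch1 on those arrays was 190 and 251, with bead standard errors of 10.5 and 15.1, so the spread within the CD133+ group exceeded the error of the beads.

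Notch2 was measured by 2 probes, both close to background. Probe ILMN_2678002 was detected on CD133- replicate 3 (5.29) and on CD133+ replicates 1 and 2 (5.10 and 5.10), and lay at 4.47 and 4.37 on the other CD133- arrays and at 4.56 on CD133+ replicate 3. Its difference of 0.21 ± 0.26 (adjusted p = 0.741, limma) had a wide 95% interval, from -0.40 to 0.82, and moved to 0.04 without CD133- replicate 2 and to 0.50 without CD133- replicate 3. Probe ILMN_2980247 was detected on 0 of 3 CD133- and 2 of 3 CD133+ arrays, at 5.14 and 5.10 on CD133+ replicates 2 and 3 and 4.61 on replicate 1, against 4.71, 4.43 and 4.62 in CD133- cells. The groups overlapped, and this probe was not tested because it was detected on fewer than 3 arrays. Both probes were thus detected on some arrays and missed on others in CD133+ cells, and on different ones, so the presence of Notch2 cannot be settled from these signals. Notch3 was detected on CD133+ replicate 2 alone, at 4.98, and lay between 4.43 and 4.75 on the other 5 arrays. Its group means were 4.63 ± 0.12 in CD133- and 4.64 ± 0.30 in CD133+ cells (SD, n = 3 each), and no fold is given.

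Among the ligands, Jag1 separated the populations. Its log2 intensities were 6.66, 6.63 and 6.84 in the CD133- replicates and 6.27, 6.17 and 6.52 in the CD133+ replicates, detected on all 6 arrays. Every CD133+ array was below every CD133- array, with a gap of 0.11 between the highest CD133+ and the lowest CD133- value. The difference corresponds to a level 0.762 times that of CD133- cells, with a 95% interval of 0.631 to 0.920 before any adjustment for the number of probes tested. The same order was present in the deposited intensities before normalization, at 213, 200 and 211 in CD133- and 176, 167 and 179 in CD133+ cells, where the bead standard errors were 4.01% to 6.40% of the signal. Raw intensities also include differences in brightness between whole arrays. Mean raw Hes1 was 471 in CD133- and 452 in CD133+ cells, although its normalized difference was 0.10. With the authors' intensities the Jag1 difference was -0.17 and without background correction -0.19. With each array left out it lay between -0.49 and -0.32. Its adjusted p was between 0.0880 and 0.326 over all 16 other settings, so Jag1 passed in 0 of them.

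Jag2, the other Jagged ligand, was close to background and was detected on 5 of the 6 arrays. The values were 5.09, 5.30 and 5.44 in CD133- and 5.45, 5.81 and 4.63 in CD133+ cells, so that the CD133+ group held both the highest and the lowest array. The difference was 0.02 ± 0.28 (adjusted p = 0.982, limma; 95% interval -0.62 to 0.66), which became 0.35 without CD133+ replicate 3 and -0.24 without CD133+ replicate 2. Dll1, the Delta-like ligand that directs lateral inhibition between neighbouring progenitors, was detected on all arrays. It had 6.73, 7.34 and 6.90 in CD133- and 6.87, 7.17 and 6.97 in CD133+ cells, and the CD133+ values lay within the CD133- range. Its difference of 0.02 ± 0.17 (adjusted p = 0.973, limma) had a 95% interval from -0.37 to 0.40 and turned to -0.08 with a median shift and to -0.0020 with array weights. It was 0.19 without CD133- replicate 2, the array with the highest Dll1 signal, and -0.11 without CD133- replicate 1.

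Rbpj, the factor through which the cleaved receptor reaches DNA, was at background by all of its 3 probes. Probes ILMN_2588315 and ILMN_2648536 were detected on 0 of 6 arrays, with log2 intensities of 4.42 to 4.84 and of 4.26 to 4.42. Probe ILMN_2772508 was detected on CD133+ replicate 2 alone, at 5.32, and lay between 4.33 and 4.70 on the other arrays. Values that are not above background have no order, so the populations are not compared for Rbpj. Vim, Krt8 and Zeb1 each had 1 probe detected on all 6 arrays and another detected on 0. The presence of Rbpj and Notch3 transcripts therefore cannot be settled from these signals either. The single detections of Rbpj, of Notch3 and 1 of the 2 detections of Notch2 probe ILMN_2980247 fell on the same array, CD133+ replicate 2, which detected 38.8% of its probes, within the range of the others.

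Among the target genes, Nrarp encodes a small ankyrin-repeat protein that is induced by Notch and in turn promotes loss of the Notch intracellular domain. Its log2 intensities were 9.60, 9.82 and 9.70 in the CD133- replicates and 9.51, 9.40 and 9.46 in the CD133+ replicates. All CD133+ arrays were below all CD133- arrays, with a gap of 0.09, and the level was 0.842 times that of CD133- cells (95% interval 0.727 to 0.975). The deposited intensities before normalization were 1001, 1061 and 917 in CD133- and 834, 716 and 728 in CD133+ cells, a mean of 993 ± 72.3 against 759 ± 65.1 (SD, n = 3 each). As for Jag1, these raw values include differences in brightness between whole arrays. In the authors' processed intensities the CD133- arrays spanned 870 to 1004 and the CD133+ arrays 771 to 825.

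Nrarp was the member whose call depended on the processing. It passed with the authors' intensities (-0.22, adjusted p = 0.0406), without background correction (-0.22, adjusted p = 0.0453) and with a variance trend and robust estimation (-0.25, adjusted p = 0.0441), all by limma. In those fits 6.72%, 6.45% and 6.36% of all tested probes passed as well, and Nrarp was the 1 member of 8 to do so. It did not pass in the other 13 settings, which included each fit with an array left out (differences of -0.30 to -0.19, adjusted p of 0.268 to 0.438). With a median shift of each array Nrarp had -0.42 and Jag1 -0.47, but there the median of all tested probes was itself -0.13.

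Hes1, the basic helix-loop-helix repressor that carries much of the Notch output in the pancreas, had 8.37, 8.54 and 8.45 in CD133- and 8.56, 8.51 and 8.60 in CD133+ cells. The groups overlapped, as CD133- replicate 2 exceeded CD133+ replicate 2. The difference of 0.10 ± 0.08 (adjusted p = 0.606, limma) gave a level ratio of 1.07 with a 95% interval from 0.935 to 1.23. Hey1, a related repressor, had 7.43, 7.23 and 7.14 in CD133- and 7.26, 7.25 and 7.26 in CD133+ cells. Its CD133+ arrays fell within 0.01 of each other and inside the range of the CD133- arrays, and the ratio was 0.993 with a 95% interval from 0.848 to 1.16 (adjusted p = 0.974, limma). These intervals do not show equal levels; they bound the differences that 3 arrays per population leave possible.

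**Figure D2:**
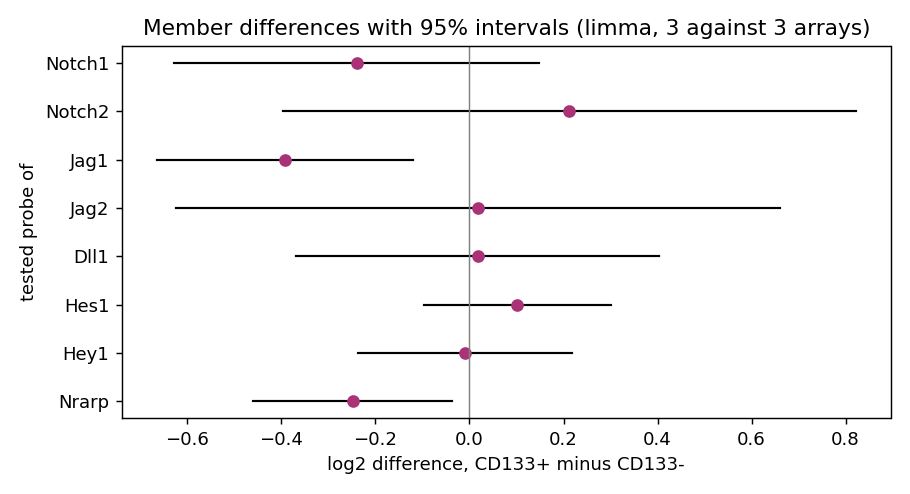
Log2 difference of CD133+ minus CD133- (x axis) for the 8 tested member probes (y axis), with points for the estimate and lines for the unadjusted 95% interval of limma from 3 against 3 arrays. The intervals of Jag1 and Nrarp lie below 0 and the other 6 include 0, with the widest for Jag2 and Notch2, which are near background.

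**Figure D3:**
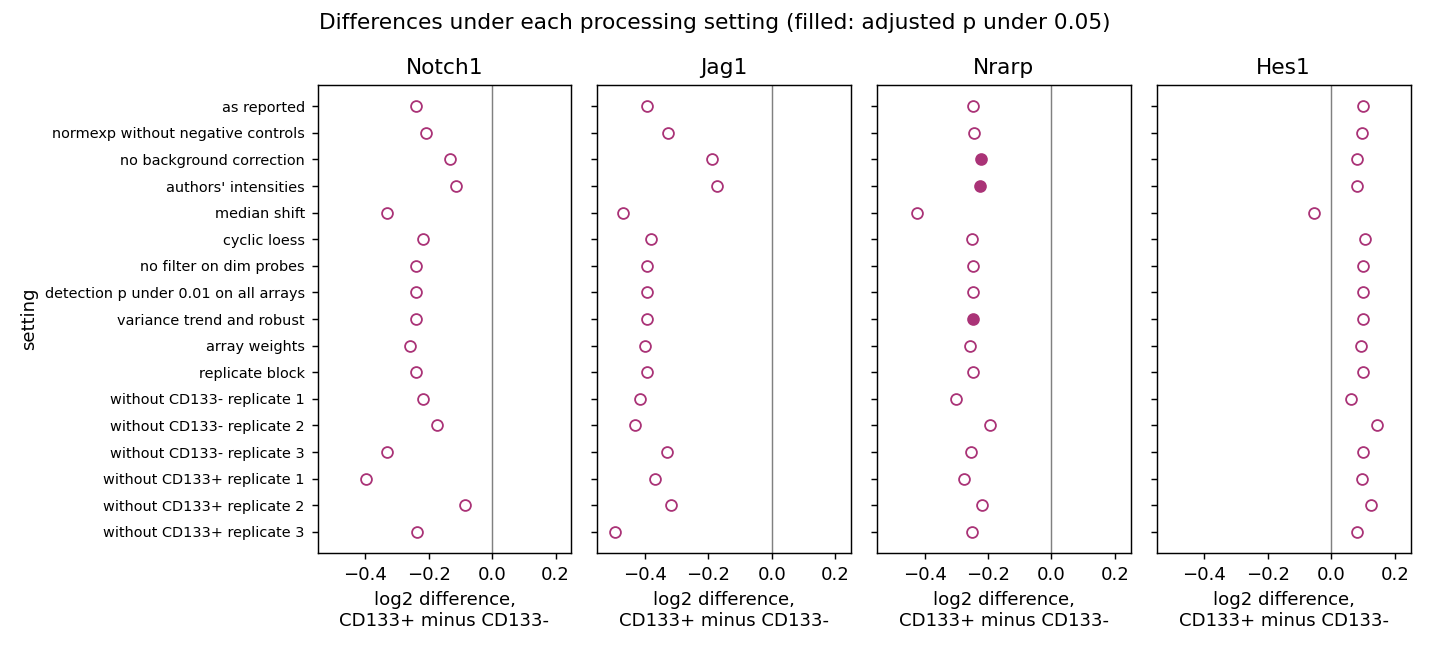
Log2 difference of CD133+ minus CD133- (x axis) for Notch1, Jag1, Nrarp and Hes1 under the reported processing and 16 other settings (y axis), filled where the adjusted p was under 0.05. Jag1, Notch1 and Nrarp stay below 0 in each setting shown, Nrarp is filled in 3 of them, and Hes1 is above 0 except with a median shift at -0.05.

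The promoters of Jag1 and Nrarp are shown because these are the members with a tested probe whose groups did not overlap. They are the 250 bases before the start of each gene in RefSeq (GRCm38.p6), read 5′ to 3′ on the gene's strand. Jag1 lies on the minus strand at chr2:137116521-137116770 and Nrarp on the plus strand at chr2:25180508-25180757, and capitals mark CACNAG or its reverse complement CTNGTG, the N box that Hes proteins bind.
Jag1: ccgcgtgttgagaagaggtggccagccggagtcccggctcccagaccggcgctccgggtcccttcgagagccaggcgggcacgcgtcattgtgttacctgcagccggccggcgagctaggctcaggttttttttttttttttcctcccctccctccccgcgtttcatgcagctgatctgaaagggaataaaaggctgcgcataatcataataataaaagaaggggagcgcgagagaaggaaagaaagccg
Nrarp: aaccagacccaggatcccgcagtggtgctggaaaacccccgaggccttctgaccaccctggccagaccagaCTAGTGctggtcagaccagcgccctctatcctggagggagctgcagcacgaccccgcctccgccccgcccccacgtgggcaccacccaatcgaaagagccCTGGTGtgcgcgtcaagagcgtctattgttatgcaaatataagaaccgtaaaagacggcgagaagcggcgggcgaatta
The Nrarp window held the N box at 2 places, which start 179 and 79 bases before the gene, and the Jag1 window held it at 0. The core bound by Rbpj, TGGGAA on either strand, and its longer form GTGGGAA, which contains it, were in neither window. Across all 32851 promoter windows of this length in the table, 36.7% held CACNAG, 21.6% TGGGAA and 5.42% GTGGGAA. Of the 10 windows that matched 8 member genes, both Rbpj windows alone held TGGGAA, while CACNAG was in those of Notch1, Notch2, Notch3 and Nrarp. A match of letters is a description, and its absence says only that these letters are not in the window.

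The wider pathway was followed through 66 listed genes, of which 59 had a named probe and 39 a tested one. Of their 74 tested probes 1 passed higher and 0 passed lower in CD133+ cells (limma, adjusted p under 0.05), next to 1.25% and 0.279% of all tested probes. At an unadjusted p under 0.05 there were 10 of 74 higher (9.08% of all tested probes) and 5 lower (7.52%), and the median difference of -0.02 was near that of all tested probes. Of the relatives of the members, Dll3, Hes5, Heyl, Lfng, Mfng, Hes2, Hes3 and Hes7 were detected on 0 arrays, Notch4 on 2, and Dll4, Hey2 and Dner on 1. Rfng was detected on all 6 arrays and Dlk1 on 5. Hes6, a helix-loop-helix gene of the Hes family, was detected on all 6 arrays by 3 probes, whose differences of -0.07 ± 0.09, 0.16 ± 0.22 and 0.12 ± 0.18 did not pass.

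The gene that passed was Kat2b, an acetyltransferase that the Notch complex recruits to its target genes. Its probe ILMN_1215305 had 5.55, 5.36 and 5.12 in CD133- and 6.001, 6.06 and 6.03 in CD133+ cells, so that each CD133+ array was above each CD133- array. It rose by 0.69 ± 0.12 on the log2 scale (adjusted p = 0.0429, limma). The rise was 0.24 with the authors' intensities, the same as without background correction, and it missed the threshold without any 1 of the 6 arrays (0.57 to 0.79, adjusted p of 0.0869 to 0.124). The other tested probe of Kat2b gave -0.13 ± 0.22 and the remaining probe was not detected. Ep300, the related coactivator, had 0.41 ± 0.10 on 1 probe (adjusted p = 0.106) and -0.05 ± 0.09 on the other tested one.

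In this fit 0 of the 10 tested probes for receptor cleavage, 0 of 16 for ligand uptake and receptor turnover and 0 of 2 for receptor glycosylation passed. The same held for 0 of 20 for corepressors, 0 of 17 for further targets and 0 of 1 for other receptors and ligands. Of all tested probes 1.53% passed, so a count of 0 in groups this small does not set any role apart. Of the genes that cut the receptor, the sheddase Adam17 had 0.57 ± 0.13 on probe ILMN_1243942 and -0.07 ± 0.10 on its other probe, and the gamma-secretase subunit Ncstn had -0.20 ± 0.09, 0.06 ± 0.08 and 0.35 ± 0.25 on 3 probes, the first of which moved to -0.13 without CD133+ replicate 3. Numb, which antagonises Notch by promoting uptake of the receptor, had 0.71 ± 0.15 on a probe that was detected on 1 of 3 CD133- arrays and on 3 of 3 CD133+ arrays (adjusted p = 0.0683, limma). The mean of that probe in CD133- cells, 4.87, rests mostly on arrays where it was not above background, and its difference was 0.21 with the authors' intensities or with the background left in. The other tested probes of Numb gave 0.26 ± 0.13 and -0.09 ± 0.08. An untested Numb probe, ILMN_2727692, went the other way, detected on 2 of 3 CD133- and 0 of 3 CD133+ arrays. The remaining Numb probes were not detected. Dtx4, a Deltex ubiquitin ligase, had -0.34 ± 0.09 and -0.11 ± 0.11 on its probes. Poglut1, which adds O-glucose to the receptor's EGF repeats, had -0.26 ± 0.08 on its single probe, and the Fringe glycosyltransferase Rfng had -0.08 ± 0.22. Dlk1, a non-canonical Delta-like protein, had -0.36 ± 0.16, and -0.22 without CD133- replicate 1 or -0.23 without CD133+ replicate 1.

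Among the corepressors, Ctbp2 had 0.49 ± 0.14 and 0.24 ± 0.14 on its 2 probes. A dim probe of the Groucho family gene Tle3 was not above background on any CD133- array. Under the reported processing the measured means put it at least about 1.30-fold higher in CD133+ cells. This bound has no error range and rests on CD133+ values of 5.80, 5.18 and 4.91. The probe did not pass (adjusted p = 0.178, limma). It entered the fit through the CD133+ arrays alone, and its fitted difference of 0.67 moved to 0.42 without CD133+ replicate 1. That difference was 0.21 with the background left in and 0.20 with the authors' intensities, so the bound does not carry over to those settings. The 3 other tested probes of Tle3 gave 0.30 ± 0.29, 0.02 ± 0.16 and -0.05 ± 0.11. Of the further target genes, the cell cycle inhibitor Cdkn1a had -0.44 ± 0.13 on 1 probe, beside -0.08 ± 0.08 and 0.31 ± 0.34. The cyclin Ccnd1 had 0.21 ± 0.08 beside -0.02 ± 0.09 and -0.02 ± 0.08. For genes with several tested probes the first value belongs to the probe with the smallest p, and where the probes lie in their transcripts is not analysed here. With the background left in, the first values were also smaller for Adam17 (0.18), Ep300 (0.14), Dtx4 (-0.12), Ctbp2 (0.28), Cdkn1a (-0.19) and Dlk1 (-0.11).

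**Figure D4:**
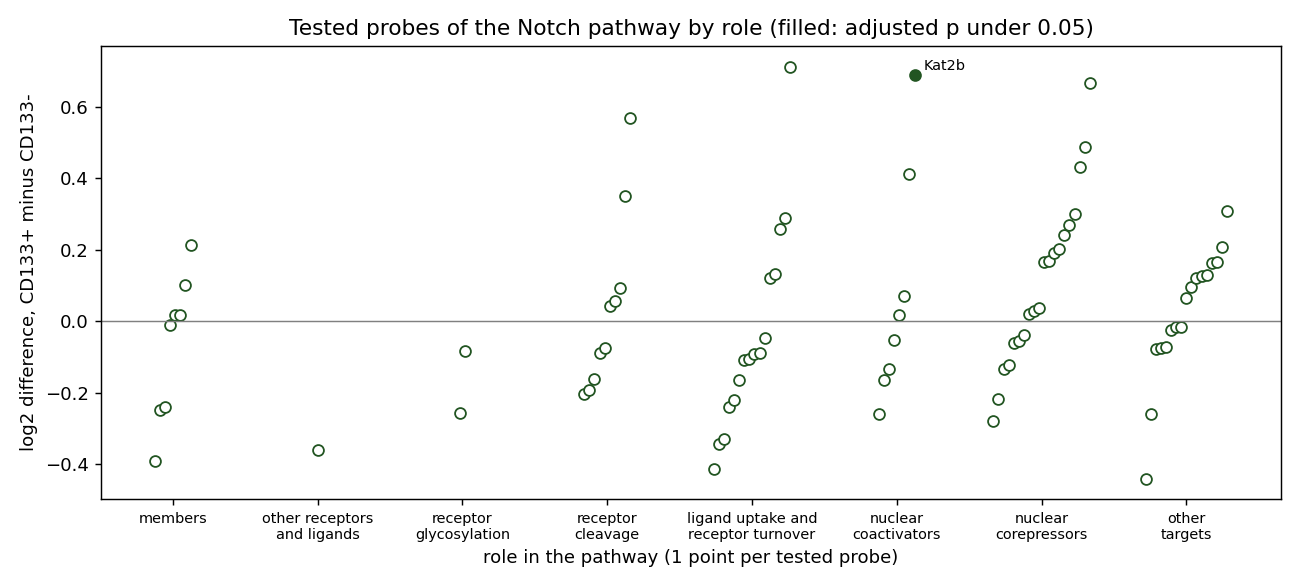
Log2 difference of CD133+ minus CD133- (y axis) for the 8 tested member probes and the 74 tested probes of the wider pathway, grouped by role (x axis), filled where the adjusted p was under 0.05. Kat2b at 0.69 is the 1 filled point, and in each group with more than 2 probes the values spread to both sides of 0.

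The marker lists moved little but not alike. The summed normalized intensity of the epithelial and ductal markers was 26604 to 27285 in CD133- and 24577 to 25451 in CD133+ arrays. Most of it came from bright probes of Krt8 and Krt18, at mean log2 values of 13.56 and 12.55 in CD133- cells. Probes of this list without overlap went both ways, Krt18 by -0.21, Muc1 probe ILMN_1250138 by 0.31 and Cdh1 probe ILMN_1227162 by 0.50. That Cdh1 probe was detected on CD133+ arrays alone. The mesenchymal markers summed to 10172 to 10715 and 10279 to 11148, and 0 genes of both lists passed. The leukocyte list summed to 1237 to 1296 and 1317 to 1493, most of it Cd14, which epithelial cells can also express. Endothelial markers, whose cells are rich in Notch4 and Dll4, summed to 265 to 287 in CD133- and 279 to 296 in CD133+ arrays with 0 of 7 genes detected on all arrays. The fibroblast and stellate list summed to 407 to 453 and 366 to 406, with Col1a1 as the 1 gene of 7 detected on all arrays. The acinar list gave 232 to 248 and 215 to 266, and the endocrine list 634 to 692 and 635 to 672. Each sum runs over all probes of its list, including those not above background. Prom1, which was not detected on any array, still summed to 63.9 to 67.1 in CD133- and 61.2 to 66.9 in CD133+ arrays. The endothelial sums are thus mostly background, as is a large part of the fibroblast and acinar sums. They do not measure marker expression. The part of these lists in the values of Jag1 and Nrarp was not tested.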

How the data were processed

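Gene expression was measured on 6 arrays, 3 per population. The deposited table held, per the file headers, a mean bead intensity for each probe and array with its bead standard error, its detection p-value and how many beads were read, before any background subtraction or normalization. The authors also deposited processed intensities on a linear scale, 0.852 to 1.11 times the first ones. No label or header says how these were made. The background was corrected with limma 3.58.1 in R 4.3.3 (normal-exponential model, with the negative controls derived through the detection p-values, offset 16), and values were log2-transformed and quantile-normalized. Probes that at least 3 arrays detected (p under 0.05) were tested with a two-sided moderated test (lmFit, eBayes) without covariates and adjusted by Benjamini-Hochberg over all 17219 of them, with a threshold of 0.05. Where a population had no detected array for a probe, the fold is a lower bound that sets the brighter mean against each dim array's own signal or its lowest detected signal, whichever was higher. Such a bound concerns the measured means and carries no error range. Symbols came from the platform annotation and promoters from RefSeq.

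The named genes were all member probes, and of the wider pathway list each gene that passed and the 2 genes with the smallest p in each role. Beyond that rule, Hes6 was given with its values, relatives of the members with their detection, and Mib2 because it passed under other settings. Members and lists were chosen with earlier results of these data known. The fit was tested on simulated data. Alternatives changed the background correction, the scaling, the filter, the variance model, array weights, the replicate block and the arrays used. The number of arrays limits the precision, and no label or header names a slide or scan date.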

Additional observations from a re-analysis of the deposited data

How the results depend on the processing

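Over 16 other settings Jag1 and Notch1 kept a value below 0 and Notch2 one above 0 wherever it was tested, and none of these 3 passed. The number of member probes that passed was 1 (Nrarp) in 3 settings, namely the authors' intensities, no background correction, and a robust fit with a variance trend, and 0 in the 13 others, 0 to 0 with an array left out. Small differences turned sign: Jag2 to -0.0052 with normal-exponential correction without negative controls, Dll1 to -0.083 with a median shift and -0.0020 with array weights, Hes1 to -0.054 with a median shift, and Hey1 to 0.010 with the authors' intensities and 0.0060 with cyclic loess. With the median shift the median of all tested probes was -0.13, below these values of Dll1 and Hes1. With an array left out the ranges were -0.24 to 0.35 for Jag2, -0.11 to 0.19 for Dll1, -0.074 to 0.071 for Hey1 and -0.24 to 0.11 for Rfng. The cause was not tested.

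The 39 tested wider pathway genes had 74 tested probes. Of these genes, 4 passed with the authors' intensities and 4 when the background was left in (Poglut1, Mib2, Kat2b and Ctbp2 in both). In the robust fit with a variance trend 5 passed (Numb in addition). Of all tested probes 6.72%, 6.45% and 6.36% passed in those fits, in the same order. No wider pathway gene passed (0) without a filter, after a median shift, with detection at 0.01 on all arrays, with the replicate block and with any array left out (0 to 0). Under detection at 0.01 on all arrays the Kat2b probe ILMN_1215305 was filtered out and not tested. Over all 17219 tested probes 264 passed. The number was 1157 with the authors' intensities, 1110 with the background left in and 1095 in the robust fit with a variance trend. It was 554 of 13339 probes with detection at 0.01 on all arrays and 113 of 45281 without a filter. With a median shift it was 37, with the replicate block 6, and with an array left out 7 to 14. Samples of the same replicate number did not deviate together (correlations of 0.02, 0.0018 and 0.02, beside -0.05 to 0.03 for unlike numbers). Such values cannot show whether these samples shared a culture or sort. Under the replicate block 0 member probes passed. The leaving-out fits have fewer samples, and apart from that and the number of probes tested the cause was not tested.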
